A study of Mus musculus with 14 samples.

Results

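In Th1 cells of the strain labelled Ets1-SE-KO (KO), 43420 genomic regions carried H3K27ac, CTCF or ETS1 in both libraries of at least 1 antibody. Wild-type (WT) cells had 37834 such regions, and merging the overlapping regions of KO and WT left 45957. A region counted for an antibody when a called peak of each of its 2 KO libraries overlapped it by at least 1 bp, and regions of different antibodies that overlapped by at least 1 bp were joined. Each joint region therefore carried 1 of 7 combinations of H3K27ac, CTCF and ETS1. The combinations are compared below within this genotype, by number, place in the genome, rank in the peak lists, the genes they lie on and the letters of the promoters under them.

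H3K27ac is acetylation of lysine 27 on histone H3, placed mainly by the acetyltransferases EP300 and CREBBP, and it is found at active promoters and enhancers. CTCF is a zinc finger protein that binds a long DNA motif, stops the cohesin ring as it extrudes loops, and marks the borders of chromatin domains. ETS1 is a transcription factor of lymphocytes whose ETS domain recognises a GGAA core, which it shares with other members of the ETS family. Th1 cells are the helper T cells that make interferon gamma under the factor TBX21 (T-bet).

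The KO groups were cells of the strain C57BL/6J-Ets1-SE-KO probed with an antibody to H3K27ac, CTCF or ETS1, with 2 libraries per antibody from biological replicates 1 and 2 by the sample titles, and 1 library with the control antibody IgG. The WT groups, set beside KO in a few places, were C57BL/6J cells with 2 libraries per antibody, which the titles give as technical replicates of 1 biological replicate. All groups were naive CD4+ T cells of mouse spleen, activated through CD3 and CD28 and polarised for 6 days, with IL-12 at 10 ng/mL and IL-2 at 1 ng/mL. The method was CUT&RUN, in which a nuclease tethered to the antibody cuts out the DNA around its target. The strain name gives the knockout as Ets1-SE, not as the Ets1 gene, and KO stands for Ets1-SE-KO throughout. The coordinates of the deletion are not used here, and the labels do not say that the 3 antibodies were used on the same animals.

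Promoters under the main combinations are printed here because the motif results below turn on their letters. Each is 150 bases of RefSeq sequence (GRCm38.p6), from 120 bases before the gene start to 29 after it, read along the gene's strand, with the motif match in capitals. Gabpa (chr16:84835004-84835153, plus strand) and Elk4 (chr1:132007500-132007649, plus) encode ETS factors, and their starts lay under regions with all 3 targets. Zfp273 (chr13:67813696-67813845, plus), a zinc finger gene, and Il2rg (chrX:101268226-101268375, minus), the common gamma chain of the interleukin receptors, lay under H3K27ac and ETS1 without CTCF. The capitals in these 4 are the ETS core CCGGAAG or its reverse complement. Ep300 (chr15:81586094-81586243, plus), the acetyltransferase gene, lay under H3K27ac and CTCF. Palm (chr10:79793452-79793601, plus), a membrane protein gene, and Mgat5b (chr11:116918743-116918892, plus), a glycosyltransferase gene, lay under CTCF alone. The capitals in these last 3 are the CTCF core CCANNAGNNGGC, where N is any base, or its reverse complement. These promoters were picked after their matches were known.
Gabpa: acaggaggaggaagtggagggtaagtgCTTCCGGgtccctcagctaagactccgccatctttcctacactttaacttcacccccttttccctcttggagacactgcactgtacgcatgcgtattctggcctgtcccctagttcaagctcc
Elk4: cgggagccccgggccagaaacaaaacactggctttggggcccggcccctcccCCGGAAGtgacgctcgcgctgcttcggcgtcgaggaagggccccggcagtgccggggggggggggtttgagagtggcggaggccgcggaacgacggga
Zfp273: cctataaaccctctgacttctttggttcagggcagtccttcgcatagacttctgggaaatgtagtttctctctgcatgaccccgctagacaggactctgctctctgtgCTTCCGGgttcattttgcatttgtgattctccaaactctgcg
Il2rg: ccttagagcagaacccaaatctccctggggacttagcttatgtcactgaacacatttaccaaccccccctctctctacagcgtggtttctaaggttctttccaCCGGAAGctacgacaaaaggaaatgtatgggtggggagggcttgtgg
Ep300: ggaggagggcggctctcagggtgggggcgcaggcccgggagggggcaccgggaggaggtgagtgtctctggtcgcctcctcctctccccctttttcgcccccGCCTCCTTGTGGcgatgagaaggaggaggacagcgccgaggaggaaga
Palm: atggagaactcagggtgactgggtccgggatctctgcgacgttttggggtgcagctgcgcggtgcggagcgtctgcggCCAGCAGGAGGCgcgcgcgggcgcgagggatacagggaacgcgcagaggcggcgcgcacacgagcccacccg
Mgat5b: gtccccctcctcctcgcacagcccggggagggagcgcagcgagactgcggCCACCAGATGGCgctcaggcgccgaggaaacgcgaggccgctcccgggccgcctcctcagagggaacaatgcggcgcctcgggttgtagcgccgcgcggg

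The 6 libraries differed in the length of their peak lists, and the ETS1 pair stood apart. ETS1 had 40705 peaks in replicate 1 and 9344 in replicate 2, H3K27ac had 26465 and 28647, and CTCF had 40502 and 39345. Of the ETS1 regions made by merging both lists, 7881 were called in both libraries, 32759 in replicate 1 alone and 1365 in replicate 2 alone, so replicate 2 set the number of ETS1 regions. Those called in both had a median width of 827 bp and lay at gene starts in 83.1% of cases, against 198 bp and 20.8% for those of replicate 1 alone. Sequencing depth is unknown, since peak lists give no counts of reads. Numbers of regions, their place, most gene-list counts at starts and motif shares that need ETS1 are therefore also given for other lists. These are lists cut to the 9344 peaks of each library with the highest −log10 q-value, or without 1 ETS1 library. Rank medians, named regions and counts of regions per gene are given for the full lists only.

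CTCF alone made up 21489 regions (49.5%), H3K27ac alone 8603 (19.8%), and all 3 together 6692 (15.4%). H3K27ac and CTCF without ETS1 were joined in 5619 regions (12.9%). The remaining combinations were rare, with 483 regions of CTCF and ETS1 (1.11%), 341 of H3K27ac and ETS1 (0.785%) and 193 of ETS1 alone (0.444%). Of the 7881 ETS1 regions, 91.3% overlapped an H3K27ac region, 92.1% a CTCF region and 87.0% a region with all 3. Of the 21325 H3K27ac regions, 58.0% overlapped CTCF and 33.1% overlapped ETS1, while of the 34784 CTCF regions 36.8% overlapped H3K27ac and 20.9% overlapped ETS1.

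The share of ETS1 regions that also held CTCF moved with list length, and the share that held H3K27ac moved less. With 9344 peaks per library, ETS1 regions numbered 6151, of which 77.0% overlapped H3K27ac and 27% overlapped CTCF. Regions with H3K27ac and ETS1 then numbered 3338 and exceeded the 1338 regions with all 3, while CTCF alone remained the most frequent at 5583. ETS1 alone counted 1093 regions with lists of that length, and 23066 when ETS1 was taken from replicate 1 without requiring replicate 2. The number of regions in a combination with ETS1 is thus a value of these lists.

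**Figure D1:**
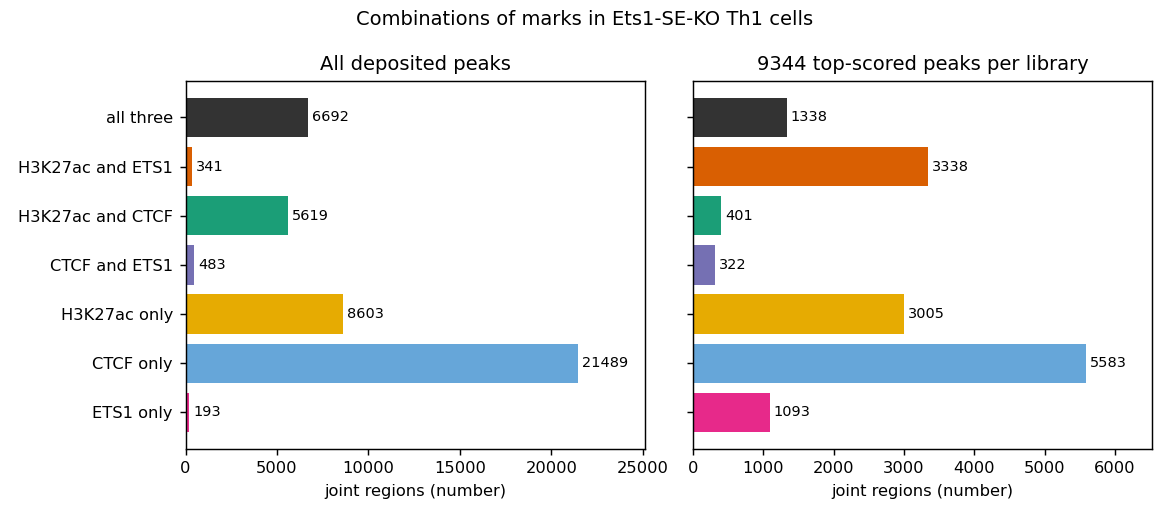
Number of joint regions (horizontal axes, starting at 0, with different scales) for each of the 7 combinations in Ets1-SE-KO cells, from all deposited peaks (left) and from the 9344 peaks of each library with the highest −log10 q-value (right). CTCF alone has the longest bar in both panels, and H3K27ac and ETS1 counts 341 regions on the left and 3338 on the right.

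Regions with all 3 lay mostly at gene starts, and H3K27ac alone and CTCF alone lay mostly away from them. Within 2 kb of a protein-coding gene start lay 87.7% of the regions with all 3, 67.1% of those with CTCF and ETS1, 64.2% of those with H3K27ac and ETS1 and 40.4% of those with ETS1 alone. The share was 42.4% for H3K27ac with CTCF, 13.4% for CTCF alone and 11.4% for H3K27ac alone, and the same windows hold 3.81% of the genome. H3K27ac alone lay inside gene bodies in 69.7% of cases and between genes in 18.9%, while CTCF alone was spread over gene bodies (42.9%) and the space between genes (43.7%). With 9344 peaks per library the shares at gene starts were 93.3% for all 3, 93.5% for H3K27ac and ETS1, 83.3% for ETS1 alone, 54.1% for H3K27ac alone and 15.5% for CTCF alone. With ETS1 taken from replicate 1 without requiring replicate 2 they were 77.0% for all 3, 41.5% for CTCF and ETS1, 27.6% for H3K27ac and ETS1 and 12.3% for ETS1 alone. A start was known for 17492 of 21887 genes, and both outer ends of the gene stood in for it in the other 4395.

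**Figure D2:**
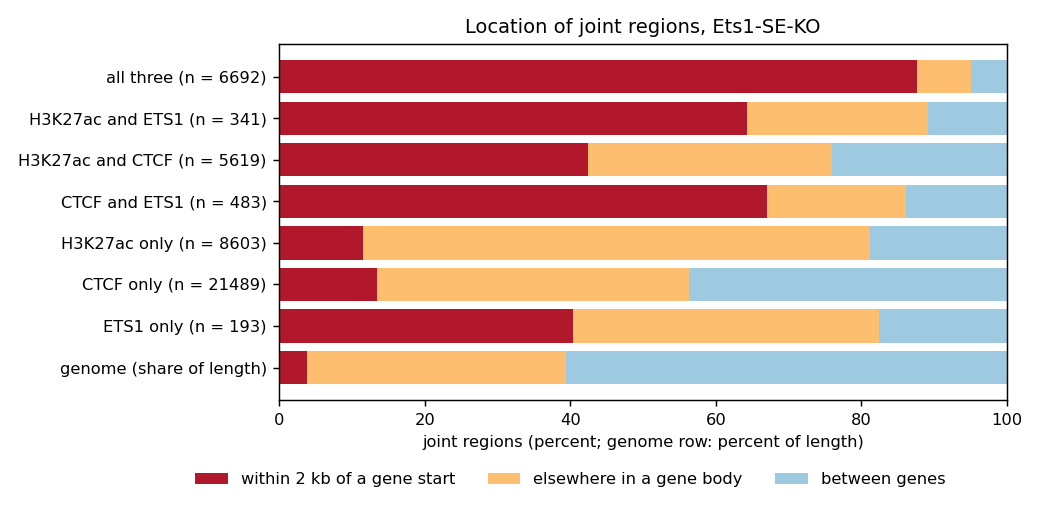
Percentage of the joint regions of each combination (rows, with their number) that lay within 2 kb of a gene start, elsewhere in a gene body or between genes, with the bottom row giving the same shares of the genome's length. The row of all 3 reaches 87.7% at gene starts, and the rows of H3K27ac alone and CTCF alone reach 11.4% and 13.4%.

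Some regions that held a gene start held the starts of several genes at once. This was so for 40 of 186 such regions with H3K27ac and ETS1 (21.5%), 827 of 5627 with all 3 (14.7%) and 37 of 454 with H3K27ac alone (8.15%). It held for 3 of 46 with ETS1 alone (6.52%), 107 of 2068 with H3K27ac and CTCF (5.17%), 9 of 274 with CTCF and ETS1 (3.28%) and 32 of 1254 with CTCF alone (2.55%). The combinations differ in region width, whose part was not tested, from a median of 1420 bp for all 3 to 482 bp for CTCF alone. With 9344 peaks per library the shares were 17.2% for H3K27ac and ETS1, 14.9% for ETS1 alone and 13.0% for all 3, and 3.32% to 7.79% for the others. Rpl4, a ribosomal protein gene, and Zwilch, a kinetochore gene, shared the best-ranked region with H3K27ac and ETS1 in this way. Mroh8 and Rpn2, which encodes a subunit of the oligosaccharyltransferase, shared the best-ranked region with all 3, which also held 1 IgG peak.

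Per library, 32.9% of the ETS1 peaks of replicate 1 and 74.0% of those of replicate 2 lay at gene starts, against 37.8% and 36.3% for H3K27ac and 31.3% in each CTCF library. ETS1 replicate 2 was high, and ETS1 replicate 1 lay between the CTCF and the H3K27ac libraries. The 3 antibodies were not distinguished by this share (exact permutation test over 6 libraries, p = 0.467, with 0.0667 the smallest p possible). The mean was 53.5 ± 29.1% for ETS1, 37.1 ± 1.09% for H3K27ac and 31.3 ± 0.0586% for CTCF (SD, n = 2 libraries each). ETS1 exceeded CTCF in all 4 library pairs by a mean of 22.2 percentage points, at the smallest two-sided exact p of 0.333 that 2 libraries against 2 allow. In lists of 9344 peaks the shares were 78.5% and 74.0% for ETS1, 71.4% and 72.9% for H3K27ac and 33.7% and 33.3% for CTCF, the groups did not overlap, and the exact p was 0.0667.

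The H3K27ac regions held 33.5% of the ETS1 peaks of replicate 1 and 85.2% of those of replicate 2, against 35.2% and 34.6% of the CTCF peaks. The mean difference was 24.5 percentage points (exact permutation test over the libraries, two-sided p = 1). The ETS1 libraries lay on either side of the CTCF libraries, and 2 of the 4 library pairs had ETS1 higher. In lists of 9344 peaks the values were 62.7% in each ETS1 library against 22.7% and 21.9% in the CTCF libraries. That difference of 40.4 points reached the smallest possible exact p of 0.333.

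All 3 antibodies peaked at gene starts. H3K27ac peaks lay 100 bp after 40.6% of 21263 starts in replicate 1 and 41.6% in replicate 2. The highest values for ETS1 were 42.8% and 25.4%, and those for CTCF 42.0% and 40.2%, all within 100 bp of the start. H3K27ac reached farther along the gene than before it, at 11.5% and 10.6% of starts 1 kb after the start against 7.48% and 7.28% at 1 kb before it. ETS1 was also higher after the start, at 5.75% and 2.55% against 3.79% and 1.98% before it. CTCF was nearer to even, at 6.41% and 5.32% after against 5.69% and 4.96% before.

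**Figure D3:**
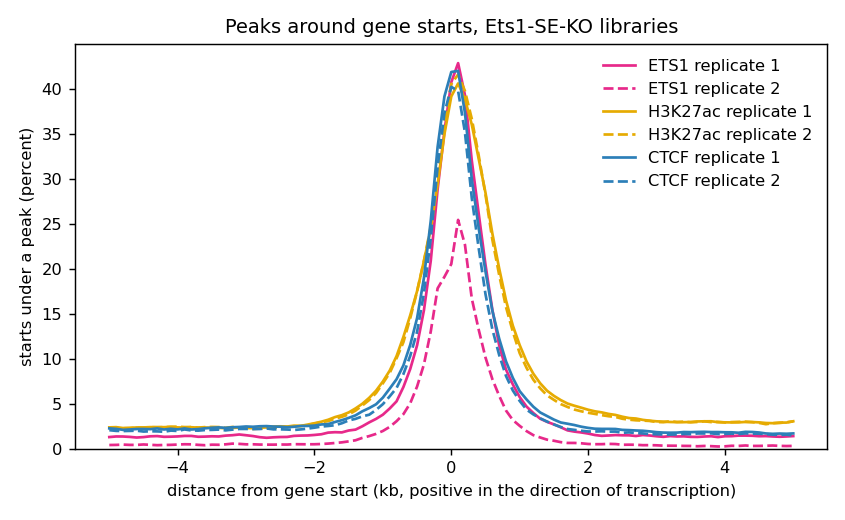
Percentage of 21263 gene starts (vertical axis) covered by a peak at each distance from the start (horizontal axis, kb), with 1 line per Ets1-SE-KO library and no error drawn. All lines are highest within 100 bp of the start, ETS1 replicate 2 peaks at 25.4% and the other 5 libraries between 40.2% and 42.8%.

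The combinations held peaks of different strength, read as the percentile of the authors' −log10 q-value within each library's own list. H3K27ac peaks in regions with all 3 had a median percentile of 82.7 and 84.2 in the 2 libraries, and those in regions of H3K27ac alone 37.4 and 39.8. The regions with all 3 held 82.1% and 82.0% of the H3K27ac peaks above the 90th percentile. For CTCF the order was different. CTCF peaks in regions with all 3 had median percentiles of 61.2 and 58.5, those of CTCF alone 57.7 and 57.0, and those with H3K27ac but no ETS1 43.7 and 41.0. CTCF alone held 62.3% and 61.8% of the CTCF peaks above the 90th percentile. ETS1 peaks in regions with all 3 stood at 89.1 in replicate 1 and 58.0 in replicate 2, and those of ETS1 alone at 62.7 and 28.8.

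The widest region with all 3 spanned 81971 bp (chr19:10714640-10796610, GRCm38) over Cd5 and Cd6, neighbouring genes for surface receptors that dampen T cell receptor signals. The next spanned 43511 bp (chr14:54179022-54222532) over the J segments of Tcra, the T cell receptor alpha locus. Ago2, an Argonaute gene, carried 33847 bp inside its body, and Cd6 a further 19858 bp. These widths followed H3K27ac. Over Cd6 with 10 kb flanks, H3K27ac peaks covered 42.5 and 39.2 kb in the 2 libraries, while CTCF covered 3.17 and 2.97 kb and ETS1 1.12 and 3.23 kb.

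Within the gene body and 10 kb flanks, 48.2% of all protein-coding genes carried a region of CTCF alone, 39.4% one with all 3, 23.4% one of H3K27ac and CTCF and 21.8% one of H3K27ac alone. CTCF and ETS1 lay there in 3.07% of genes, H3K27ac and ETS1 in 2.51% and ETS1 alone in 1.1%. Prkch, a protein kinase C gene of T cells, carried most regions of H3K27ac alone, 37 within its body and 10 kb flanks. Its H3K27ac peaks covered 132 and 134 kb, against 4.74 and 3.79 kb for CTCF and 4.83 and 1.53 kb for ETS1. Bach2, a repressor that holds T cells in a resting state, carried 31, Gramd1b, a sterol transport gene, 23, Ubr4, a ubiquitin ligase gene, 21, and Nfkb1, an NF-kB subunit gene, 20. Each of these genes carried 24 to 44 regions of all kinds.

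Ccnd3, the cyclin D3 gene, and Dgkz, a diacylglycerol kinase gene, carried 6 regions with all 3, and Nfatc2, an activation factor, and Zmiz1, a transcriptional coregulator, carried 5, as did the model gene Gm20517. H3K27ac with CTCF was most frequent at Clec16a and Zmiz1 (11 each), Thada (10), and Gramd1b and Foxp1, a factor of T cell quiescence (7 each). CTCF alone was most frequent at Gse1 and Nav2 (19 each), Wwox (18), and Fry and Gm37013 (15 each). Over Nav2, which spans 651 kb, CTCF peaks covered 10.5 and 9.19 kb and H3K27ac covered 0 in both libraries. Satb1, a chromatin organiser of T cells, Foxo4, Gm614, Il2rg and Ankrd44 carried 2 regions of H3K27ac and ETS1, and Foxo4, Gm614 and Il2rg are neighbours that share theirs. Ercc1, a DNA repair gene, Zfp516, Pde4c, Obsl1 and Dusp15 carried 2 of CTCF and ETS1.

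Of the 193 regions of ETS1 alone, 14 lay on Sfi1, a centrosomal gene, where ETS1 peaks covered 28.7 and 23.5 kb and 1 IgG peak was called. The part of repeated sequence in these peaks was not tested, and the placement of reads with several matches is not given in the sources used here. Pbx4 and Batf3, an AP-1 factor of activated T cells, carried 2 each, and Smad3, the mediator of TGF-beta signals, and Bcor, a corepressor gene, 1 each. The best-ranked were at the starts of Dffa, Dph2, Eno4 and AW146154 and next to Atf6. The best-ranked region of CTCF and ETS1 lay over Rn18s-rs5, a pseudogene of the 18S ribosomal RNA, 101694 bp from the nearest gene start, that of Esp38, and counts there are uncertain for the same reason. In the IgG library, 285 peaks were called, of which 76.5% overlapped H3K27ac regions, 82.5% CTCF regions and 56.1% ETS1 regions. IgG peaks lay in 164 regions with all 3 (2.45%), in 33 with CTCF alone (0.154%) and in 260 of the 43420 in all.

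Nearly all T cell identity, activation, acetylation and housekeeping genes carried H3K27ac at their starts, and no Hox gene did. Of all genes, 45% had an H3K27ac region within 2 kb of the start, 52.5% a CTCF region and 34% an ETS1 region, while 31% had a region with all 3 and 43.9% had none. No list gene carried CTCF and ETS1 (1.6% of all genes) or ETS1 alone (0.388%) at its start. Of 25 T cell identity genes, 25 had H3K27ac, 22 CTCF, 15 ETS1 and 14 a region with all 3. Without ETS1 replicate 2, 25 had ETS1 and 22 a region with all 3, against 57.7% and 40.4% of all genes. With 9344 peaks per library the counts were 10 and 1, against 29.4% and 6.63% of all genes. Cd247, the T cell receptor zeta chain, Cd4, Cd5 and Cd2 were among the 14. Cd3d and Cd3g, chains of the CD3 complex, and Cd28, the costimulatory receptor, carried H3K27ac with CTCF, a combination found at 11.5% of all genes and at 1.52% without ETS1 replicate 2. Without that library Cd3d, Cd3g and Cd28 had all 3, as did Cd3d and Cd3g without replicate 1. With 9344 peaks per library Cd3d and Cd3g carried H3K27ac alone and Cd28 none. Cd3e, next to Cd3d and Cd3g, carried H3K27ac and ETS1, found at 1.23% of all genes and at 17.0% with 9344 peaks per library. It carried H3K27ac alone in those shorter lists. Its H3K27ac peaks covered 3.54 and 3.48 kb, its ETS1 peaks 0.497 and 0.298 kb and its CTCF peaks 0.407 and 0.689 kb, with no CTCF region within 2 kb of its start.

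Of 18 T cell activation genes, 17 carried H3K27ac and 12 a region with all 3, among them Nfatc1, Nfatc2, Rel and Relb, and Il2, the growth factor gene, carried none. Of 12 genes of naive and resting T cells, 11 carried H3K27ac. Ccr7, the lymph node homing receptor, Klf2, a factor of naive T cell migration, and Foxo1 were under regions with all 3, and S1pr1, a receptor for leaving lymphoid organs, and Tcf7 under H3K27ac and CTCF, with all 3 at both without ETS1 replicate 2. Il7r, the interleukin 7 receptor, carried H3K27ac alone (4.47% of all genes), with 15.3 and 14.5 kb of H3K27ac in its 10 kb flanks and body and no CTCF or ETS1 peak in any library. Bach2 carried no region at the start examined, which lies inside the gene, and its outer ends were not examined.

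Th1 genes were divided. Of 29, 20 carried H3K27ac (69.0%, against 45% of all genes) and 10 a region with all 3 (34.5%, against 31%). CTCF alone lay at 4 (12.5% of all genes), and 7 carried none. In the lists cut to equal length 12 of the 29 had H3K27ac, against 32.3% of all genes. With those lists 0 of the 29 had all 3, against 6.63%. Tbx21, the Th1 factor, and Ifngr1 and Ifngr2, the interferon gamma receptor chains, had all 3 in the full lists. Tbx21 had H3K27ac alone in the shorter lists. Stat4, which carries the IL-12 signal, Il12rb2, its receptor chain, Il18r1 and Runx3 had H3K27ac with CTCF, and all but Il18r1 had all 3 without ETS1 replicate 2. Over Tbx21, H3K27ac covered 10.8 and 8.88 kb, CTCF 2.83 and 2.85 kb and ETS1 1.52 and 1.07 kb. Ifng, the interferon gamma gene, had none within 2 kb of its start, and in its body and 10 kb flanks only 1 CTCF library had a peak, of 0.225 kb. Cxcr3, the chemokine receptor of Th1 cells, Cxcr6 and the chemokine gene Ccl5 also had none at their starts. Of 19 genes of other helper lineages 9 carried H3K27ac, and Il4, Il5, Rora, Il17a and Foxp3 were among 7 with none.

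Genes of the machinery of the marks were marked at their starts, as were housekeeping genes. Of all genes, 45% carried H3K27ac and 31% a region with all 3. Of 17 CTCF and cohesin genes, 14 carried a region with all 3 (82.4%), among them Ctcf and the cohesin subunit genes Smc1a, Smc3 and Stag1. In the lists cut to equal length 6 of the 17 had all 3, against 6.63% of all genes. Rad21, the cohesin kleisin gene, carried H3K27ac alone. H3K27ac there covered 5.59 and 5.09 kb, ETS1 0 in both libraries, and CTCF 0.455 kb in replicate 1 and 0 in replicate 2. Of 11 genes of acetylation and its readers, 11 carried H3K27ac and 9 a region with all 3, including Kat2a, Kat2b, Hdac1 and Hdac2. In the shorter lists 11 had H3K27ac and 1 had all 3. Ep300 and Crebbp carried H3K27ac and CTCF in the full lists. ETS1 covered 1.31 and 0 kb over Ep300 with 10 kb flanks and 2.52 and 0.322 kb over Crebbp in replicates 1 and 2, and both had all 3 without ETS1 replicate 2. Of 20 housekeeping genes 19 carried H3K27ac and 11 a region with all 3, among them Gapdh, Tbp, Ppia and Pgk1. In the shorter lists 15 of the 20 had H3K27ac and 2 had all 3.

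The 39 Hox genes, developmental regulators that are silent in most adult cells, carried no H3K27ac region at their starts in the full lists, and no ETS1 region called in both libraries. ETS1 replicate 1 without requiring replicate 2 had regions at 13 of them (33.3%), against 57.7% of all genes. CTCF alone lay at 15 of the 39, including Hoxa3, Hoxa9 and Hoxa10, against 12.5% of all genes, and 24 had none, against 43.9%. These 15 were the only Hox genes with any CTCF region at the start, a smaller share than the 52.5% of all genes. All 72 regions in Hox genes with 10 kb flanks were CTCF alone, against 41.6% of regions over all genes, counted once per gene. Over Hoxb5, for example, CTCF covered 3.54 and 3.26 kb and H3K27ac 0. H3K27ac alone made up 62.6% of the regions at naive genes, 53.3% at T cell identity genes, 50% at activation genes and 43.1% at Th1 genes, against 20.2% over all genes. Bach2 and Foxp1 held 49 of the 82 such regions at naive genes, and without them the share was 57.9%, or 46.2% with Satb1 and Lef1 left out as well.

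**Figure D4:**
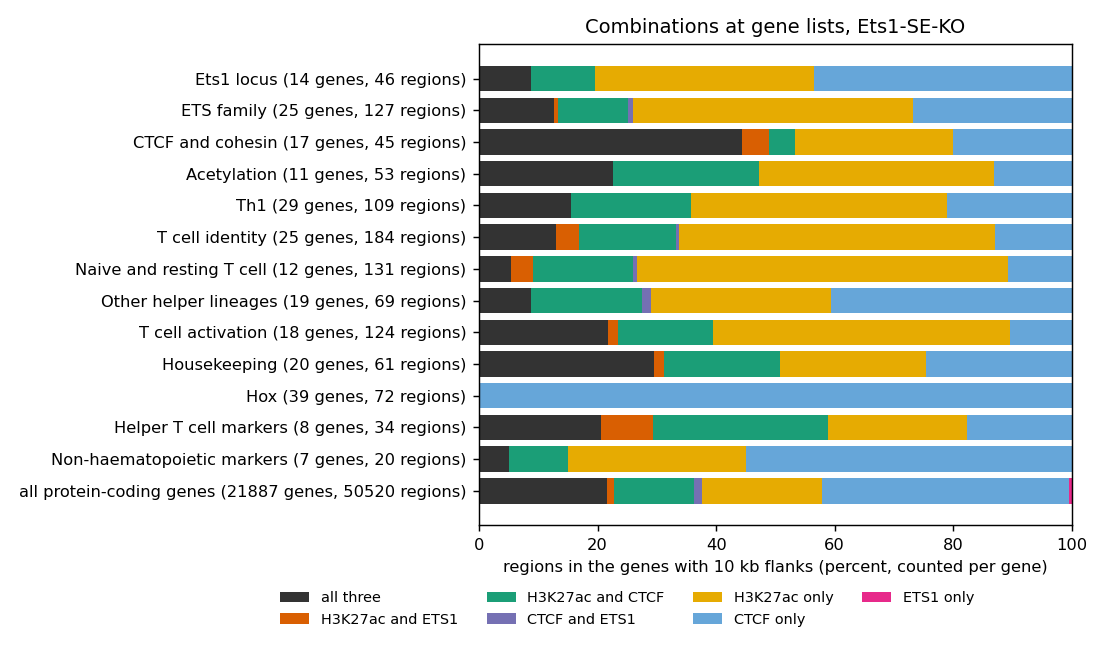
Make-up of the joint regions in genes with 10 kb flanks, as percentages of the regions counted per gene, for each list with at least 20 regions and for all protein-coding genes (bottom row). Hox genes are filled by CTCF alone, and naive T cell genes have the longest share of H3K27ac alone, at 62.6%.

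The labelled cell type was set against its markers. Of 8 helper T cell markers, 7 carried H3K27ac at their starts, and Cxcr3 did not. The 6 B cell markers, among them Cd79a and Cd79b, and the 3 NK markers carried no region of any antibody at their starts. ETS1 replicate 1 without requiring replicate 2 had regions at 2 B cell and 2 myeloid markers (33.3% each), against 57.7% of all genes. In the same setting it had regions at 4 of 7 non-haematopoietic markers (57.1%), 1 of 2 CD8 markers and 1 of 4 erythroid markers. It had them at 7 of 8 helper T cell markers and 0 of 3 NK markers. Of 6 myeloid markers, Csf1r carried H3K27ac alone and Cd14 CTCF alone. Of the CD8 markers, Cd8b1 carried H3K27ac and CTCF and Cd8a none. Klf1 among 4 erythroid markers carried all 3, and Pecam1 among 7 non-haematopoietic markers carried H3K27ac with CTCF and H3K27ac alone. Their part in the results was not tested.

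At the locus named in the strain label, Ets1 carried 2 regions with all 3 (chr9:32695512-32697926 and chr9:32699358-32708841) and 9 of H3K27ac alone within its body and 10 kb flanks. H3K27ac covered 24.2 and 23.4 kb there, CTCF 1.59 and 0.916 kb and ETS1 2.58 and 2.13 kb, so all 6 libraries had peaks. No region overlapped the outer ends of the gene, which stood in for its start since Ets1 is not in the promoter table used. Beyond the last H3K27ac region of Ets1, ending at 32746521, the next region was CTCF alone at chr9:32940319-32941859. Fli1, the neighbouring ETS factor gene, carried 6 regions of H3K27ac alone and 2 of H3K27ac and CTCF, with no ETS1 region. Of the 14 genes of the locus, Prdm10 and Zbtb44 carried all 3 at their starts, Nfrkb and Aplp2 H3K27ac and CTCF, and Arhgap32 and St14 CTCF alone. The other 8, Ets1, Fli1, Kcnj1, Kcnj5, Kirrel3, Tmem45b, Barx2 and Adamts15, carried none within 2 kb of the positions examined. Outer ends stood in for the start of Fli1 as for Ets1. A region of H3K27ac and CTCF (chr9:32539326-32541400) lay 2032 bp from an outer end of Fli1, just outside the window. Of the 25 genes of the ETS family, 9 carried a region with all 3, among them Ets2, Gabpa, Elf1 and Elf2, and 12 any H3K27ac, which is 36% and 48% against 31% and 45% of all genes.

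The ETS core shown in the promoters above was most frequent where H3K27ac lay over the start. CCGGAAG, on either strand of the 300 bases around the start, was present in 28.4% of 222 starts under H3K27ac and ETS1, 23.1% of 6329 under all 3, 20.5% of 2032 under H3K27ac and CTCF and 18.6% of 413 under H3K27ac alone. It was present in 10.4% of 48 starts under ETS1 alone, 8.44% of 237 under CTCF and ETS1, 5.76% of 1059 under CTCF alone and 3.27% of 10923 under none. Over all 21263 starts, of 17492 genes, the share was 11.6%. The same letters in reverse order, GAAGGCC, were in 5.86% of starts under H3K27ac and ETS1, 6.48% under all 3 and 3.64% under none. Median GC content was 56.2%, 63.3% and 49.7% in the same order. The reversed letters do not match the core in CpG, a C followed by a G, which CCGGAAG holds and GAAGGCC lacks. The median ratio of observed to expected CpG was 0.802, 0.829 and 0.25 in that order, and its part was not tested.

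Among acetylated starts in the full lists, the share with the ETS core followed the number of ETS1 libraries with a peak over the start. It was 26.3% of 3919 starts with both libraries, 21.6% of 3293 with replicate 1 alone, 19.2% of 167 with replicate 2 alone and 15.4% of 1226 with no ETS1 peak. Without H3K27ac it was 11.6% of 215 starts with both ETS1 libraries and 3.41% of 11148 with no ETS1 peak. Median GC content among the acetylated starts was 64.7% for both libraries and 55.7% for no ETS1 peak, and its part was not tested. With 9344 peaks per library the shares were 25.8% under H3K27ac and ETS1, 24.1% under H3K27ac alone, 18.6% under ETS1 alone and 11.5% under CTCF alone.

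The CTCF core was most frequent under CTCF alone, at 4.34% of starts, against 2.34% of all starts. It was present at 3.8% under CTCF and ETS1, 3.15% under H3K27ac and CTCF, 2.99% under all 3, 0.969% under H3K27ac alone and 1.68% under none. The share was higher where the CTCF region ranked higher. Under CTCF alone it was 1.66% of 664 starts below the 50th percentile, 7.37% of 312 between the 50th and 90th and 14.5% of 83 above. Under all 3 it was 1.75%, 3.32% and 6.04% in the same bins. The motif was searched in promoters only, which the regions of CTCF alone mostly miss, and matches of the ETS and CTCF cores were counted whether or not they overlapped.

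**Figure D5:**
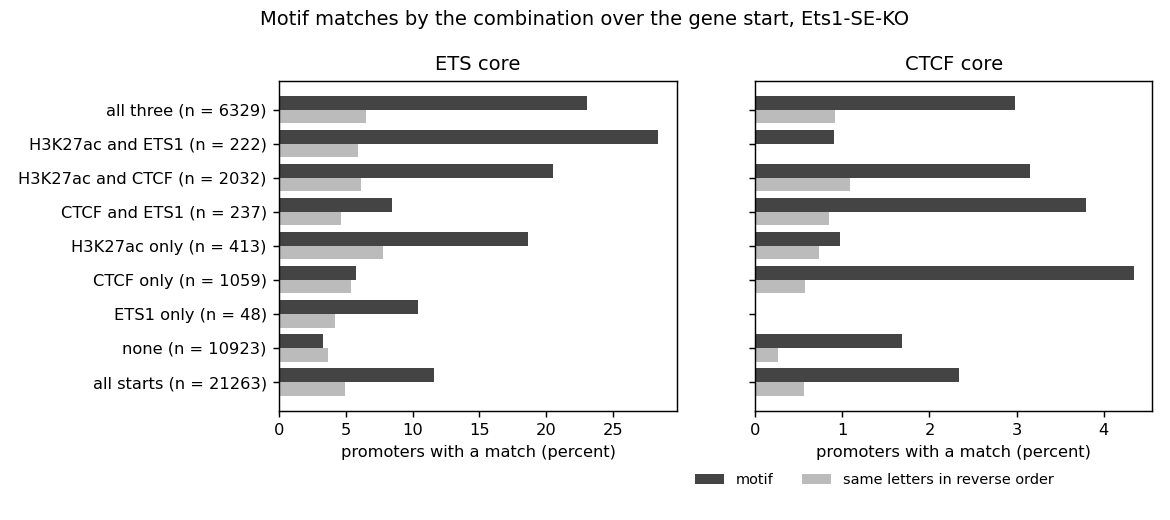
Percentage of promoters with a match to the ETS core (left) and the CTCF core (right) by the combination over the gene start (rows, with the number of starts), with grey bars for the same letters in reverse order and different horizontal scales. The ETS core lies at 18.6% to 28.4% in the 4 rows with H3K27ac and at 3.27% in the row of none, and the CTCF core is highest under CTCF alone at 4.34%.

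Set beside WT cells, acetylated regions in KO cells overlapped CTCF more. Of the H3K27ac peaks, 49.7% and 48.3% lay in CTCF regions in KO libraries, against 36.5% and 36.3% in WT libraries. The means were 49.0 ± 1.02% and 36.4 ± 0.186% (SD, n = 2 libraries each, technical in WT), the groups did not overlap, and the exact permutation p of 0.333 is the smallest possible. H3K27ac peaks in ETS1 regions made up 26.2 ± 1.11% in KO and 32.9 ± 0.0999% in WT (SD, n = 2 libraries each). CTCF regions numbered 34784 in KO and 26438 in WT, and list length moves these shares. The same combination was found in WT at the place of 72.3% of the KO regions of CTCF alone, 70.9% of those with all 3, 53.8% of H3K27ac alone and 27.9% of H3K27ac and CTCF. Genotype and animal cannot be told apart in this comparison, since WT is 1 biological replicate.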

How the data were processed

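CUT&RUN peak lists of 6 Ets1-SE-KO libraries (3 antibodies, 2 libraries each) were used, with the lists of WT and IgG for comparison, out of 14 libraries in all. The submitters' processing notes name BWA and the build GRCm38. Peak names in the deposited lists have the MACS2 form for broad peaks, and a list belongs to 1 library. Program versions, calling options, controls and duplicate removal: not given in the sources used here. The deposited lists hold a score (a whole number taken from the q-value), a fold or ratio of enrichment over background, and −log10 values of p and q. All are the authors' per-peak values, and only the −log10 value of q served here, to rank peaks within a list. Depth is unknown without read counts, and no interval that needs it is given.

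Merging, overlaps of at least 1 bp, windows of 2 kb and flanks of 10 kb were computed with Python 3.11.15, NumPy 2.4.6, pandas 2.3.3 and SciPy 1.17.1 on chromosomes 1 to 19, X and Y, and checked on simulated intervals. Genes came from RefSeq (GRCm38.p6), with 21263 starts of 17492 genes taken from its promoter sequences. Of the 251 genes in the 18 lists, 172 have a promoter there, and the others were placed by both outer ends. Shares per library were compared by exact two-sided permutation tests, and combinations, genes, ranks and motifs were described without a test.

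The members and lists were chosen with earlier results of these data known. Genes are named by this rule: all genes of the Ets1 locus, up to 4 examples of each other list in list order, and for each combination the 5 genes with most regions and the 5 best-ranked regions, with the 5 widest regions with all 3. Genes shown outside it (Cd3g, Cd28 and Rad21 beside their partners, Il17a, Foxp3 and Hoxb5, and the printed promoters) were picked after their values were seen. A few results under this rule are not reported here. The correlation of deviations between same-numbered libraries, 0.0256 for H3K27ac with CTCF, −0.133 for H3K27ac with ETS1 and 0.0620 for CTCF with ETS1, gave no pairing of replicates.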

Additional observations from a re-analysis of the deposited data

How the results depend on the processing

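The lists limit the results most through ETS1, whose replicate 2 has fewer peaks, and depth is unknown. Of the alternatives, 95 values of genes, 70 of region numbers and 80 of shares at gene starts stayed within the set bounds, and 31, 28 and 46 moved. The cause was not tested. The ETS1 alternatives for gene lists, for regions with several gene starts and for the X chromosome, and the naive list without some genes, were added after seeing the data.

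Lists of the same length (9344 peaks) gave 1338 regions for all 3, 3338 for H3K27ac and ETS1, 401 for H3K27ac and CTCF, 3005 for H3K27ac alone, 5583 for CTCF alone and 1093 for ETS1 alone. Their shares at gene starts were 93.5% for H3K27ac and ETS1, 65.8% for H3K27ac and CTCF, 81.1% for CTCF and ETS1, 54.1% for H3K27ac alone and 83.3% for ETS1 alone. Genes with each at the start numbered 1451 for all 3, 3711 for H3K27ac and ETS1, 296 for H3K27ac and CTCF, 1778 for H3K27ac alone, 886 for CTCF alone and 1069 for ETS1 alone. The upper 50% of each list gave 2419 regions for all 3, 1336 for H3K27ac and ETS1, 2428 for H3K27ac and CTCF, 255 for CTCF and ETS1, 5285 for H3K27ac alone and 12021 for CTCF alone. Shares at starts there were 89.4%, 72.2%, 80.8% and 44.7% for H3K27ac with ETS1, H3K27ac with CTCF, CTCF with ETS1 and H3K27ac alone, and 75.1% for ETS1 alone. Genes numbered 2698 for all 3, 1471 for H3K27ac and ETS1, 2583 for H3K27ac alone, 1743 for CTCF alone and 231 for ETS1 alone. Regions cut to the overlap of the 2 libraries gave 129 genes for ETS1 alone.

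Leaving out 1 library at a time gave 6749 to 10307 regions for all 3, 182 to 2194 for H3K27ac and ETS1, 2007 to 6829 for H3K27ac and CTCF, 325 to 3802 for CTCF and ETS1, 6749 to 14426 for H3K27ac alone, 18164 to 25717 for CTCF alone and 147 to 23066 for ETS1 alone. Shares at gene starts ran from 77.0% to 87.4% for all 3, 27.6% to 64.3% for H3K27ac and ETS1, 15.6% to 43.2% for H3K27ac and CTCF, 41.5% to 68.2% for CTCF and ETS1, 8.92% to 11.2% for H3K27ac alone, 8.95% to 13.5% for CTCF alone and 12.3% to 43.0% for ETS1 alone. Genes ran from 6811 to 8841 for all 3, 136 to 685 for H3K27ac and ETS1, 332 to 2857 for H3K27ac and CTCF, 225 to 1610 for CTCF and ETS1, 603 to 1333 for H3K27ac alone, 1615 to 3200 for CTCF alone and 57 to 2710 for ETS1 alone. The difference between ETS1 and CTCF peaks in H3K27ac regions ran from −1.42 to 50.3 percentage points. It turned negative, at −1.42 (exact p = 0.333, the smallest that 1 library against 2 allows), without ETS1 replicate 2, and was 50.3 without ETS1 replicate 1. The difference at gene starts ran from 1.63 to 42.7 points between the same libraries left out, and the exact p over 3 antibodies was 0.0667 in both cases.

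With the replicate number as a block, means over the numbers were 1262.5 regions for H3K27ac and ETS1, 2246 for CTCF and ETS1 and 11531.5 for ETS1 alone. Shares at starts under the block were 79.1% for all 3, 32% for H3K27ac and ETS1, 45.8% for CTCF and ETS1, 8.57% for H3K27ac alone, 11.0% for CTCF alone and 17.2% for ETS1 alone. Genes under the block numbered 1677.5 for H3K27ac and CTCF, 957.5 for CTCF and ETS1 and 1350 for ETS1 alone, and the exact block p was 0.5 for starts. The replicate numbers are not shown to pair libraries. Since H3K27ac and ETS1 deviated oppositely, a block with the ETS1 numbers crossed was added after seeing the data, with 1446, 2018.5 and 11481 regions, 426.5 genes for H3K27ac and ETS1, 1612 for H3K27ac and CTCF, 876.5 for CTCF and ETS1 and 1342 for ETS1 alone. Its shares at starts were 78.8% for all 3, 30.8% for H3K27ac and ETS1, 26% for H3K27ac and CTCF, 47.3% for CTCF and ETS1, 8.38% for H3K27ac alone and 16.3% for ETS1 alone.

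Windows of 1 kb gave 8.11% at starts for H3K27ac alone and 9.66% for CTCF alone. Windows of 5 kb gave 22.5%, 24.2% and, for ETS1 alone, 48.2%, with 1853 genes for H3K27ac alone and 4704 for CTCF alone. Using only genes in the promoter table, added after seeing the data, gave 73.6% for all 3, 50.9% for CTCF and ETS1, 7.60% for H3K27ac alone and 9.12% for CTCF alone. Using both ends of every gene, also added, gave 17.5% for H3K27ac alone and 18.6% for CTCF alone, with 1651 genes for H3K27ac alone.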

Other observations

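Regions of H3K27ac and ETS1 without CTCF were placed on the X chromosome in 21 of 341 cases (6.16%), and those of ETS1 alone in 9 of 193 (4.66%), against 787 of the 43420 KO regions in all (1.81%). Regions with all 3 lay there in 123 cases (1.84%) and those of CTCF alone in 365 (1.70%). In WT cells the shares were 2.86% for H3K27ac and ETS1 and 4.07% for ETS1 alone, against 1.73% of all WT regions. Foxo4, Gm614 and Il2rg, which share 2 of the KO regions, are X-linked. With 9344 peaks per KO library the shares were 1.74% for H3K27ac and ETS1 and 3.57% for ETS1 alone, against 1.39% of all regions, and without ETS1 replicate 2 they were 3.01% and 1.66%, against 1.75%. The shares of KO and WT were not tested against each other.

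The microRNA hairpins in RefSeq, 1005 in all, were set against the same regions, with examples picked after their values were seen and with the full lists only. A region with all 3 lay within 2 kb of 106 hairpins (10.5%), among them Mir191 and Mir425. H3K27ac alone lay near 97 (9.65%), including Mir15b and Mir16-2, which share a host transcript, and Mir25, Mir93 and Mir106b of another cluster. CTCF alone lay near 89 (8.86%), including Mir196b of the Hox clusters and Mir34b and Mir34c. H3K27ac and CTCF lay near 53, including Mir23a, Mir27a and Mir24-2, which also had H3K27ac alone nearby. H3K27ac and ETS1 lay near 7, CTCF and ETS1 near 3 and ETS1 alone near 2, and 689 had no region.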
